A study of Homo sapiens with 2 samples.

Results

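Serpins are a superfamily of proteins that share a fold with an exposed reactive loop. An inhibitory serpin offers the loop to a protease as a substrate, and cleavage traps the enzyme in a covalent complex that cannot be released. The family also has members that inhibit no protease, among them a collagen chaperone and a secreted anti-angiogenic factor. In the gut and other barrier tissues, serpins made locally or delivered by plasma meet the proteases of leukocytes, of coagulation and of complement. The genes described here were the 9 serpins SERPINA1, SERPINA3, SERPINC1, SERPINB1, SERPINB9, SERPING1, SERPINE2, SERPINF1 and SERPINH1, chosen by symbol among the 36601 genes of the feature list, and all 9 were found. A further 25 genes in the list carry serpin symbols and are given by counts after the 9.

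The cells came from colon organoids made from the human iPSC line 1383D6, an established line of induced pluripotent stem cells. All of them had been differentiated with activin A, the ROCK inhibitor Y-27632 and FGF2 on Matrigel, and with EGF, forskolin, the MEK inhibitor PD98059, the demethylating agent 5-aza-2'-deoxycytidine and A-83. The 3CK group received 3 cytokines over 8 days (IL-1β, IFN-γ and TNF-α), and the CNT group did not. The series models ulcerative colitis with such organoids, and the question here is how serpin transcripts differ after exposure to inflammatory cytokines. Each group was 1 library of 10x Genomics 3' v3.1 single-cell RNA-seq, loaded with about 8300 cells. With 1 library per group no test across replicates was possible. Treatment, culture and library cannot be told apart, and each interval below is a 95% interval for counting error only.

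After filtering, 2487 CNT and 1398 3CK cells were kept, with 101831571 and 91860414 unique molecular identifiers (UMIs, counts of captured transcripts), and 0 barcodes were shared. The median cell had 28911 UMIs in CNT and 62746 in 3CK. Levels are UMIs per 1000000 UMIs of the summed cells (CPM), so 3 UMIs over a whole library correspond to 0.0295 CPM in CNT against 0.0327 CPM in 3CK. Cells with at least 2 EPCAM UMIs per 10000 were taken as epithelial, which gave 1660 CNT cells (66.7%) and 1016 3CK cells (72.7%). Cells with at least 5 UMIs per 10000 of COL1A1, COL1A2 and COL3A1 together and under 1 of EPCAM were taken as mesenchymal, which gave 574 CNT cells (23.1%) and 124 3CK cells (8.87%). The remaining 253 and 258 cells met neither rule.

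The class names were compared with marker lists. These lists include the rule's own genes EPCAM, COL1A1, COL1A2 and COL3A1, so part of the contrast between the classes follows from the rule. All 10 epithelial markers were above 1 CPM in the epithelial cells of both libraries, among them the intestinal transcription factor CDX2 at 80.6 CPM in CNT against 83.3 CPM in 3CK. They were not absent from mesenchymal cells, where 10 markers in CNT and 9 in 3CK were above 1 CPM and the list summed to 8994 and 11714 CPM, against 11444 and 21771 CPM in epithelial cells. In each library 8 of the 10 were at least 2-fold lower in mesenchymal cells, among them the tight junction gene CLDN4 (log2 ratio of mesenchymal over epithelial cells -4.99 in CNT and -5.50 in 3CK). The keratins KRT8 (0.05 and -0.82) and KRT18 (0.20 and -0.65) lay within 2-fold, so the mesenchymal class is a class by rule that also carries keratin transcripts. The epithelial cells carried hepatic transcripts: the 6 genes TTR, APOA1, APOA2, AFP, FGB and ALB summed to 97702 CPM in CNT against 32109 CPM in 3CK. The 10 mesenchymal markers, with the 3 collagens of the rule among them, summed to 10965 and 5065 CPM in mesenchymal cells and to 528 and 98.2 CPM in epithelial cells. All 10 were at least 2-fold higher in mesenchymal cells of each library (all genes 26.1% in CNT and 19% in 3CK). They include LUM, DCN and POSTN, which the rule did not use. Over all cells the 5 endothelial markers summed to 26.3 and 26.0 CPM and the 6 leukocyte markers to 37.2 and 64.7 CPM, with the leukocyte-defining gene PTPRC at 0.314 and 0.446 CPM.

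Sequences upstream of 2 members are shown because these were, of the 3 members at least 2-fold higher in the cytokine-treated library, the 2 with an entry in the RefSeq promoter table used here (GRCh38.p14; 6 of the 9 members had an entry, and SERPINC1, SERPINF1 and SERPING1 had none). The 250 bases before each annotated start were searched on both strands. The patterns were the gamma-activated site TTCNNNGAA, the interferon-stimulated response element core (GAAA, any 2 bases, then GAAA), the NF-kB motif, the HNF1 half-site GTTAAT and the heat shock element core GAANNTTC. Only the stretch free of annotated exons is printed, 5′ to 3′ on the gene's strand, with the matched letters in capitals.
SERPINB1, chr6:2841960-2842113, minus strand: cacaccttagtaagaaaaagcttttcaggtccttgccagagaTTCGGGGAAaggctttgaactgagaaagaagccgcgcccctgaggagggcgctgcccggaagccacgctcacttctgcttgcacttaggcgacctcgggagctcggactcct
SERPINA3, chr14:94612141-94612383, plus strand: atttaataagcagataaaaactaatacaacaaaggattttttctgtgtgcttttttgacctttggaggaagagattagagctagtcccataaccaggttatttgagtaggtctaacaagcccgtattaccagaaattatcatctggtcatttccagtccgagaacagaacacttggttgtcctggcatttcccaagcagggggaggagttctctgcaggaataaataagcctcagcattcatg

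The window of SERPINB1 held 1 match to the gamma-activated pattern, between positions -208 and -200 from the start site, and that pattern occurred in 6.57% of the 35116 promoters searched. The window of SERPINA3 held none of the 5 patterns, and neither did those of SERPINB9 and SERPINE2. A second annotated start of SERPINA1 had an HNF1 half-site between -76 and -71 (6.23% of promoters), in a window wholly covered by the gene's annotated exons. The SERPINH1 window had an NF-kB match between -239 and -230 (5.21%) and a heat shock core between -71 and -64 (5.78%). The heat shock core lay outside the longest exon-free stretch of that window, between -250 and -198. The response element core, found in 3.02% of promoters, was in no member's window. A match is a run of letters and not evidence of binding.

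Over all cells, 3 of the 9 serpins were at least 2-fold higher in 3CK, 3 were at least 2-fold lower and 3 lay within 2-fold. Of all 17523 genes that reached 1 CPM in either library, 6.96% were at least 2-fold higher, 11.3% at least 2-fold lower and 18.3% either. The members' median log2 ratio was -0.20, against -0.05 for all genes compared. The higher members were SERPING1, SERPINA3 and SERPINB1, and the lower ones SERPINC1, SERPINE2 and SERPINF1.

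**Figure D1:**
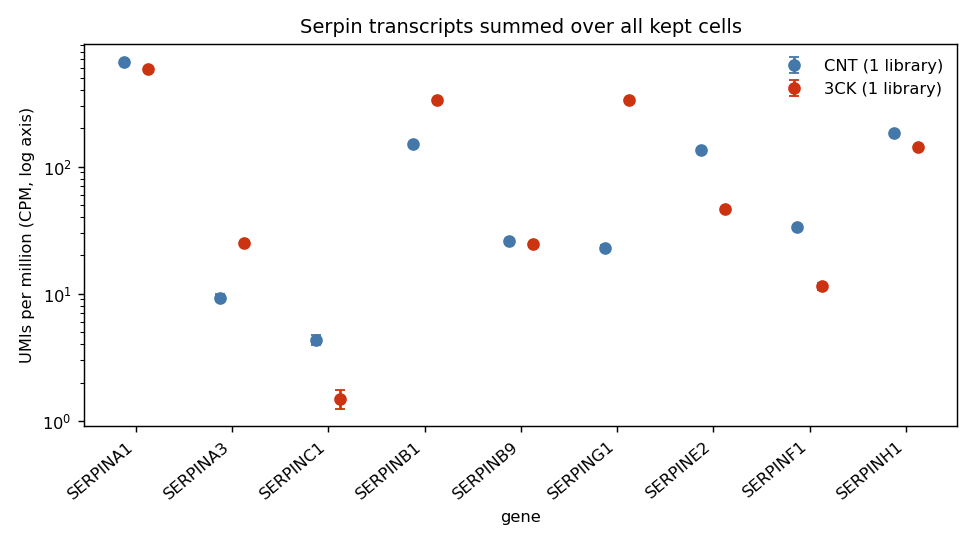
Level of each serpin (CPM, logarithmic axis) summed over all kept cells of the untreated (CNT, blue) and cytokine-treated (3CK, red) library; bars are 95% Poisson counting intervals. SERPING1 stands at 23.0 CPM in CNT against 333 CPM in 3CK, while SERPINB9 and SERPINA1 nearly coincide in the 2 libraries.

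In epithelial cells SERPING1, SERPINA3 and SERPINB1 were at least 2-fold higher and SERPINC1, SERPINE2 and SERPINF1 at least 2-fold lower, where 8.48% of 16809 genes were at least 2-fold higher and 12.1% lower (20.6% either way). In mesenchymal cells 8 members reached 1 CPM, of which SERPING1 was at least 2-fold higher, SERPINA1 at least 2-fold lower and 6 within 2-fold. There 6.05% of 17353 genes were at least 2-fold higher and 16.7% lower (22.7% either way). The members' median log2 ratio was -0.13 in epithelial cells (all genes 0.01) and -0.39 in mesenchymal cells (all genes -0.21).

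**Figure D2:**
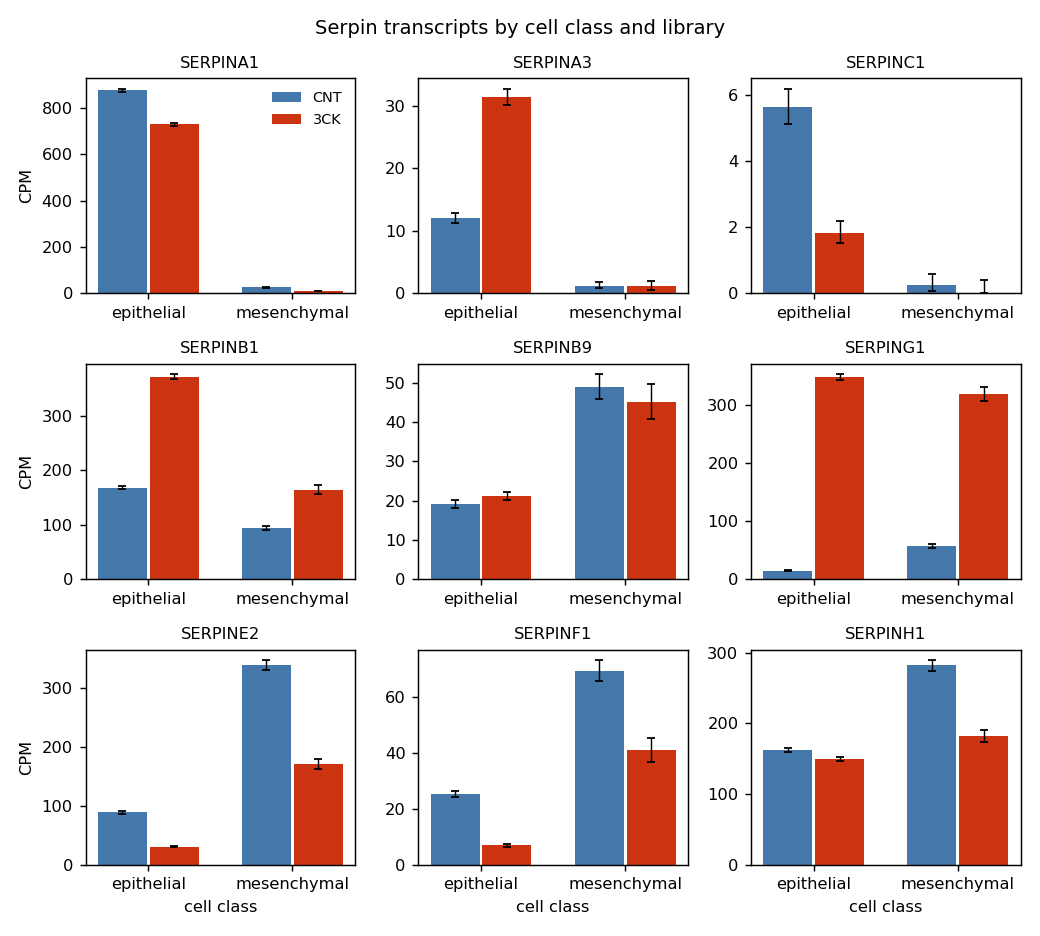
Level (CPM) of each serpin in epithelial and mesenchymal cells of CNT (blue) and 3CK (red), with 95% Poisson counting intervals; each panel has its own axis from 0. SERPINA1, SERPINA3 and SERPINC1 are almost confined to epithelial bars, SERPINE2 and SERPINF1 are taller in mesenchymal cells, and SERPING1 changes from a mesenchymal excess in CNT to similar bars in 3CK.

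SERPING1 encodes C1 inhibitor, which inactivates the complement proteases C1r, C1s and the MASPs as well as plasma kallikrein and factor XII. Its level over all cells was 23.0 CPM (22.1 to 24.0) in CNT against 333 CPM (329 to 336) in 3CK, 14.4-fold higher, a log2 ratio of 3.85 (3.79 to 3.91). In epithelial cells it was 14.3 CPM in CNT against 349 CPM in 3CK, 24.3-fold higher. In mesenchymal cells it was 57.8 and 320 CPM, 5.54-fold higher. The epithelial log2 ratio exceeded the mesenchymal one by 2.14 (2.00 to 2.27). The classes therefore stood 4.03-fold apart in CNT, with mesenchymal cells higher, and 1.09-fold apart in 3CK, with epithelial cells higher. With each cell given equal weight the log2 ratios of 3CK over CNT were 4.44 in epithelial and 2.90 in mesenchymal cells, a smaller gap. Epithelial cells held 46.6% of the SERPING1 UMIs in CNT and 80.2% in 3CK. These shares also depend on the class mix: of all UMIs, epithelial cells held 74.8% and 76.3% and mesenchymal cells 19.3% and 9.92%.

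The SERPING1 difference was also seen in the share of cells with a UMI. To compare shares at equal depth, each cell of at least 5000 UMIs was thinned to 5000, which kept 1062 and 776 epithelial and 320 and 107 mesenchymal cells of CNT and 3CK. After thinning 6.21% of epithelial cells had a SERPING1 UMI in CNT (4.84 to 7.84) and 73.3% in 3CK (70.1 to 76.4). Without thinning the shares of all epithelial cells were 25.5% and 82.8%. In mesenchymal cells the thinned shares were 20.6% and 73.8% (unthinned 38.7% and 89.5%), so the classes had similar shares in 3CK. Among 3CK epithelial cells of at least 10000 UMIs, the 10th percentile was 101 CPM, the median 308 CPM and the 90th percentile 611 CPM. The corresponding CNT cells had a median of 0 and a 90th percentile of 40.3 CPM, below the 3CK 10th percentile. The 10% of 3CK epithelial cells richest in SERPING1 held 32.4% of its UMIs, while the deepest 10% of those cells held 24.7% of all UMIs.

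The low CNT level of SERPING1 in epithelial cells overlapped with what collagen-positive barcodes carried. The epithelial rule sets no upper limit on collagens, and 497 CNT epithelial cells (29.9%) but 49 3CK epithelial cells (4.82%) also had at least 5 collagen UMIs per 10000. In these CNT cells SERPING1 stood at 31.1 CPM, against 12.6 CPM in the other 1163. Restricted to epithelial cells under 5 collagen UMIs per 10000, a restriction chosen after the data were seen, the log2 ratio of 3CK over CNT was 4.80 instead of 4.61. Matrix genes that the rule did not use gave the size of mesenchymal signal in CNT epithelial cells. LUM was at 10.1%, DCN at 4.23% and POSTN at 2.92% of its mesenchymal level. At those ratios 40.8%, 17.0% and 11.7% of the CNT epithelial SERPING1 level could be carried over, and at most 4.53% of the 3CK level. The part of free RNA and of mixed droplets was not tested.

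The genes nearest to SERPING1 across cells differed between the libraries. Likeness was the Pearson correlation of log2(UMIs per 10000 + 1) over cells with at least 10000 UMIs, which share a library and its depth, and is a description. The cells are of all classes, so the mix of classes enters every likeness given for a member and its nearest genes. In CNT (1458 cells, 3363 genes with a mean of at least 0.5 UMIs per 10000) the nearest were IFITM3 at r = 0.50, TIMP1 at 0.49 and BST2 at 0.47. In 3CK (995 cells, 3584 genes) HLA-B at 0.62 and HLA-C at 0.62, genes of antigen presentation, were among the nearest.

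SERPINA1 encodes alpha-1-antitrypsin, the main plasma inhibitor of neutrophil elastase and a product of liver and intestinal epithelium. Over all cells it stood at 666 CPM in CNT (662 to 672) against 580 CPM in 3CK (575 to 585), a log2 ratio of -0.20. In epithelial cells it was 876 CPM in CNT against 729 CPM in 3CK, 1.20-fold lower. At 5000 UMIs per cell, 74.9% of CNT and 75.8% of 3CK epithelial cells had a UMI, with overlapping intervals (72.1 to 77.4 and 72.6 to 78.7). The unthinned shares were 77.5% and 85.4%. In mesenchymal cells, the thinned shares were 9.06% and 4.67%. Giving each cell equal weight instead of summing UMIs moved the epithelial log2 ratio from -0.26 to -0.01 and the ratio over all cells to 0.04, so the small difference in SERPINA1 had no stable direction over all cells.

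Over all deep cells, in which the mix of classes enters the correlation, the genes nearest to SERPINA1 were APOA2 (r = 0.78), RBP4 (0.77) and APOA1 (0.77) in CNT and APOA1 (0.73), RBP4 (0.73) and TTR (0.71) in 3CK, hepatic and plasma protein genes. To look within the class, epithelial cells of at least 10000 UMIs were put into 4 ranges by the summed UMIs per 10000 of TTR, APOA1, APOA2, AFP and FGB, with boundaries at the quartiles over both libraries (173, 525 and 1045 per 10000). A range is a stretch of a score and not a cell type. From the lowest to the highest range, SERPINA1 stood at 270, 503, 844 and 1200 CPM in CNT. In 3CK it stood at 403, 792, 1240 and 1472 CPM. In each range the 3CK level was the higher one, by 1.49-fold, 1.57-fold, 1.47-fold and 1.23-fold, the opposite direction to the sum over epithelial cells. The 2 libraries filled the ranges differently: 71.2% of the 1013 CNT cells but 20.7% of the 730 3CK cells lay in the upper 2 ranges, and the highest range held 25 3CK cells. The score genes themselves were lower in 3CK, with all 6 hepatic markers at least 2-fold lower in epithelial cells, so cells of equal score in the 2 libraries need not be alike.

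**Figure D3:**
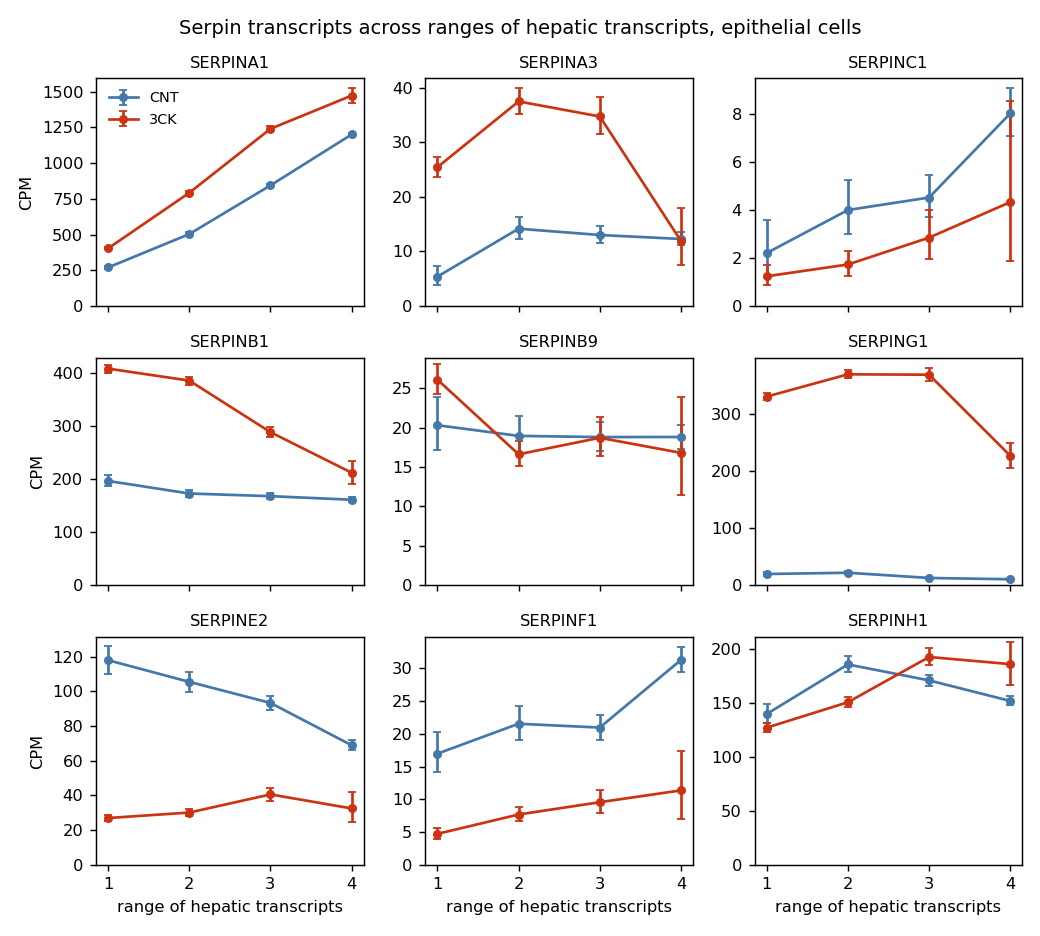
Level (CPM) of each serpin in 4 ranges of summed hepatic transcripts (1 lowest, 4 highest) among epithelial cells of at least 10000 UMIs, in CNT (blue) and 3CK (red), with 95% Poisson counting intervals. The 3CK line of SERPINA1 lies above the CNT line in all 4 ranges, that of SERPINC1 lies below it, and SERPINB1 declines along the ranges in 3CK from 407 to 212 CPM.

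SERPINA1 in mesenchymal cells was compared with what carried-over epithelial RNA would give. It stood at 26.6 CPM in CNT against 9.54 CPM in 3CK (2.78-fold lower), 3.03% and 1.31% of the epithelial level. The hepatic genes TTR and APOA2, not used by the class rule, were at 2.17% and 1.22%, and at 2.18% and 0.935%. Carry-over at the TTR ratio would give 71.5% and 93.2% of the measured mesenchymal SERPINA1, and at the APOA2 ratio 71.9% and 71.4%. Whether free RNA or mixed droplets supplied it was not tested. The level was higher in shallow barcodes. SERPINA1 was at 436 CPM (156 UMIs) in the 263 CNT mesenchymal cells under 10000 UMIs and at 19.0 CPM in the 311 deeper ones, and TTR at 25855 and 955 CPM in the same cells. The shallow cells were 45.8% of CNT and 14.5% of 3CK mesenchymal cells. For SERPINB1, SERPINB9, SERPINE2, SERPINF1, SERPING1 and SERPINH1 the same calculation gave at most 3.90% of the mesenchymal level.

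SERPINA3 encodes alpha-1-antichymotrypsin, an acute-phase inhibitor of cathepsin G that lies near SERPINA1 on chromosome 14. It was at 9.32 CPM in CNT (8.74 to 9.93) against 25.03 CPM in 3CK (24.0 to 26.1), 2.69-fold higher. Epithelial cells held 96.9% and 95.7% of its UMIs, at 12.1 and 31.4 CPM. Mesenchymal cells had 24 and 10 UMIs, or 1.22 and 1.10 CPM, with a log2 ratio of -0.16 whose interval ran from -1.38 to 0.96 and which was 0.61 with equal cell weight.

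SERPINA3 UMIs were unevenly spread over cells. At 5000 UMIs, 5.56% of epithelial cells had a UMI in CNT (4.26 to 7.11) and 10.1% in 3CK (8.03 to 12.4), and without thinning 16.6% and 36.02%. The median deep epithelial cell had 0 in both libraries, and the 90th percentile was 33.6 CPM in CNT against 76.4 CPM in 3CK. In 3CK the 10% of epithelial cells richest in it held 79.1% of its UMIs. Its nearest gene in 3CK was SERPINA1, at r = 0.36, and in CNT TF, at 0.22, a weak likeness at this sparsity. Across the hepatic ranges SERPINA3 stood at 5.38, 14.2, 13.0 and 12.3 CPM in CNT and at 25.4, 37.5, 34.7 and 11.9 CPM in 3CK. The difference between libraries was thus 4.72-fold in the lowest range and 2.65-fold and 2.67-fold in the middle ones. In the highest range the log2 ratio was -0.04 (-0.73 to 0.58), over the 25 3CK cells there.

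SERPINC1 encodes antithrombin, the heparin-activated inhibitor of thrombin and factor Xa made by hepatocytes. It was the scarcest of the members in UMIs, 442 in CNT against 136 in 3CK, which is 4.34 CPM (3.95 to 4.76) and 1.48 CPM (1.24 to 1.75), 2.93-fold lower. Epithelial cells held 97.3% and 94.9% of them. In mesenchymal cells there were 5 UMIs in CNT and 0 in 3CK, where 3 UMIs correspond to 0.329 CPM, so no ratio is read between the libraries there. At 5000 UMIs 2.73% and 1.29% of epithelial cells had a UMI (unthinned 15.5% and 10.0%), and 0 of 320 and 0 of 107 mesenchymal cells, which allows shares of cells with a UMI at this depth of up to 0.938% and 2.80% by the limit of 3 counts, and 1.15% and 3.39% by the exact binomial interval. SERPINC1 was lower in 3CK in every hepatic range, with log2 ratios of -0.83, -1.21, -0.67 and -0.89. The intervals of the lowest range (-1.72 to 0.12) and of the highest (-2.12 to 0.11) included 0. With each cell given equal weight its log2 ratio was -0.89 over all cells and -0.99 in epithelial cells, inside 2-fold.

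SERPINB1 encodes the leukocyte elastase inhibitor, a cytosolic serpin that acts on neutrophil elastase, cathepsin G and proteinase 3. It was at 149 CPM in CNT (147 to 151) against 333 CPM in 3CK (329 to 336), 2.23-fold higher. Both classes showed the higher level: 168 and 372 CPM in epithelial cells, 2.21-fold, and 94.2 and 165 CPM in mesenchymal cells, 1.75-fold. The epithelial log2 ratio was larger by 0.34 (0.23 to 0.44). Its median over deep epithelial cells was 144 CPM in CNT against 278 CPM in 3CK, and the share of epithelial cells with a UMI at 5000 UMIs was 51.8% and 71.1% (unthinned 67.1% and 82.9%). The equal-weight log2 ratio in epithelial cells was 0.98, just inside 2-fold, and that in mesenchymal cells was 0.89. The gap between the classes was then smaller than by the sums.

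Across the hepatic ranges the CPM of SERPINB1 declined where that of SERPINA1 rose. In CNT it was at 196, 173, 168 and 161 CPM from the lowest to the highest range, and in 3CK at 407, 385, 288 and 212 CPM. The ratio of 3CK over CNT was 2.08-fold, 2.23-fold, 1.72-fold and 1.32-fold. The score genes are part of the total that CPM divides by, so other genes lose CPM as they rise. TTR alone went from 3377 CPM in the lowest to 108626 CPM in the highest CNT range. The size of this effect on SERPINB1 was not tested. Over single deep epithelial cells its Pearson correlation with SERPINA1 was 0.13 in CNT and 0.10 in 3CK, not negative. Over all deep cells the genes nearest to SERPINB1 were S100A10 (r = 0.52), PRR13 (0.52) and CSTB (0.51) in CNT. In 3CK they were IL32 (0.61), VAMP8 (0.60) and the keratin KRT19 (0.58).

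SERPINB9 encodes the cytosolic inhibitor of granzyme B, the protease that cytotoxic lymphocytes deliver to target cells. It was at 26.0 CPM in CNT (24.98 to 26.97) against 24.5 CPM in 3CK (23.5 to 25.5), a log2 ratio of -0.08 whose sign changed in 3 of 10 alternative calculations. In epithelial cells it was at 19.2 and 21.1 CPM and in mesenchymal cells at 49.0 and 45.2 CPM. The mesenchymal log2 ratio of -0.12 also changed sign, to 0.59 with equal cell weight and 0.06 with TMM factors (edgeR's scaling between sums). By these sums mesenchymal cells stood 2.56-fold above epithelial cells in CNT and 2.14-fold in 3CK, and the equal-weight log2 ratio in CNT was 0.50 instead of 1.36. The thinned shares were 8.66% and 10.1% of epithelial cells and 21.6% and 26.2% of mesenchymal cells, and in both classes the intervals of the 2 libraries overlapped (unthinned 38.4% and 51.2%, and 40.6% and 67.7%). The leukocyte markers summed to 27.9 CPM in CNT against 95.4 CPM in 3CK mesenchymal cells, of which CD68, a macrophage and lysosomal gene, made up 26.7 and 91.4 CPM, with PTPRC at 0.560 and 3.62 CPM. Their part in the mesenchymal values was not tested.

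**Figure D4:**
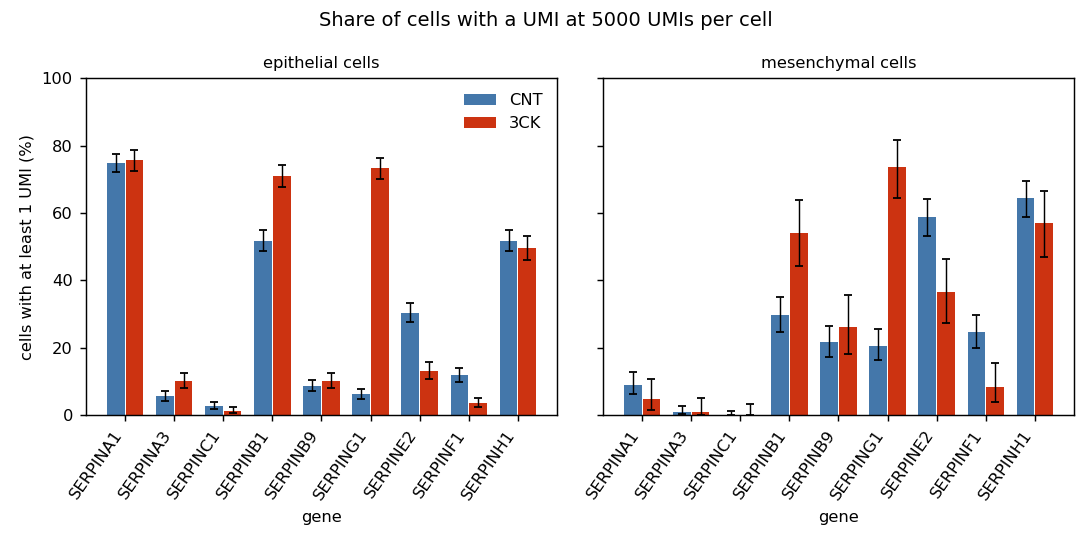
Share of epithelial (left) and mesenchymal (right) cells with at least 1 UMI of each serpin after thinning each cell to 5000 UMIs, in CNT (blue) and 3CK (red), with exact binomial 95% intervals. SERPING1 goes from 6.21% to 73.3% of epithelial cells and from 20.6% to 73.8% of mesenchymal cells, while the SERPINA1 bars of epithelial cells are level.

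SERPINE2 encodes protease nexin-1, a heparin-binding inhibitor of thrombin, urokinase and tissue plasminogen activator at the cell surface and in matrix. It was at 135 CPM in CNT (133 to 137) against 46.3 CPM in 3CK (44.9 to 47.7), 2.92-fold lower. In epithelial cells it was at 88.7 and 30.9 CPM, 2.87-fold lower. In mesenchymal cells it was at 338 and 171 CPM, 1.98-fold lower, a log2 ratio of -0.99. That ratio moved past 2-fold in 3 alternatives (at most to -1.03). It was smaller in size with equal cell weight (-0.64), TMM factors (-0.81) and stricter class boundaries (-0.86). Mesenchymal cells were higher than epithelial cells by 3.81-fold in CNT and 5.53-fold in 3CK. With each cell given equal weight the CNT log2 ratio was 1.02 instead of 1.93. The cells with a UMI at 5000 UMIs made up 58.8% and 36.4% of mesenchymal cells and 30.4% and 13.1% of epithelial cells. The unthinned shares were 57.1% and 75.8% of mesenchymal cells, in the opposite order to the thinned shares and the CPM at the higher 3CK depth, and 62.1% and 53.5% of epithelial cells.

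The libraries differed in their mix of classes, and SERPINE2 was compared with that mix held constant. With the shares of UMIs from epithelial, mesenchymal and remaining cells held at their mean over the libraries, the log2 ratio was -1.22 instead of -1.55. In the CNT epithelial cells that also had at least 5 collagen UMIs per 10000 SERPINE2 stood at 133 CPM, against 84.1 CPM in the others. Among epithelial cells under that limit the log2 ratio was -1.44 instead of -1.52. Carry-over from mesenchymal cells at the LUM ratio could make up 38.7% of the epithelial level in CNT and 27.3% in 3CK, and at the DCN ratio 16.2% and 4.38%. Within each hepatic range it was also lower in 3CK, at 27.0 against 118 CPM in the lowest range (log2 -2.13) and 32.5 against 68.9 CPM in the highest (-1.08). Over all deep cells, in which the mix of classes enters, its nearest genes were TGFBI (r = 0.48), CTHRC1 (0.46) and FBLN2 (0.46) in CNT. In 3CK they were LOXL2 (0.44), CTHRC1 (0.44) and COL3A1 (0.43), the last a gene of the class rule. These are mostly genes of the extracellular matrix.

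SERPINF1 encodes pigment epithelium-derived factor, a secreted member that inhibits no protease and is known for its anti-angiogenic action. It was at 33.7 CPM in CNT (32.6 to 34.8) against 11.4 CPM in 3CK (10.7 to 12.1), 2.95-fold lower. In epithelial cells it was at 25.2 and 6.89 CPM, 3.66-fold lower, and in mesenchymal cells at 69.3 and 40.8 CPM, 1.70-fold lower. The epithelial log2 ratio lay 1.11 below the mesenchymal one, with an interval for the difference from -1.33 to -0.89. With each cell given equal weight the mesenchymal log2 ratio was -0.20 instead of -0.76, and the epithelial one -2.20 instead of -1.87. Mesenchymal cells exceeded epithelial cells by 2.75-fold in CNT and 5.92-fold in 3CK, and the equal-weight log2 ratio in CNT was 0.81 instead of 1.46. With the class mix held constant the log2 ratio over all cells was -1.32 instead of -1.56. At 5000 UMIs 11.8% and 3.48% of epithelial and 24.7% and 8.41% of mesenchymal cells had a UMI (unthinned 37.8% and 26.3%, and 41.3% and 59.7%).

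Within CNT epithelial cells SERPINF1 was highest in the highest hepatic range, at 17.0, 21.6, 21.0 and 31.3 CPM across the ranges. In 3CK it was at 4.73, 7.68, 9.56 and 11.4 CPM. Carry-over at the LUM ratio could make up 27.9% of its epithelial level in CNT and 29.3% in 3CK, and at the DCN ratio 11.6% and 4.69%. Over all deep cells its nearest genes were DLK1 (r = 0.41), DCN (0.39) and COL1A2 (0.35) in CNT and DCN (0.47), COL3A1 (0.43) and CTHRC1 (0.43) in 3CK.

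SERPINH1 encodes HSP47, a chaperone of the endoplasmic reticulum that binds folded procollagen and inhibits no protease. It was at 182 CPM in CNT (180 to 185) against 143 CPM in 3CK (140 to 145), a log2 ratio of -0.35. In epithelial cells it was at 163 and 149 CPM (log2 ratio -0.13) and in mesenchymal cells at 282 and 182 CPM (-0.63). The excess of mesenchymal over epithelial cells was 1.73-fold in CNT and 1.22-fold in 3CK. With each cell given equal weight the log2 ratio of mesenchymal over epithelial cells in CNT was 0.36 instead of 0.79. The log2 ratios of 3CK over CNT were then -0.26 in epithelial and -0.34 in mesenchymal cells. Its presence was broad, with 51.8% and 49.6% of epithelial cells and 64.4% and 57.0% of mesenchymal cells showing a UMI at 5000 UMIs (unthinned 68.0% and 77.5%, and 59.9% and 83.9%). Across hepatic ranges it was lower in 3CK in the 2 lowest (log2 -0.14 and -0.30) and higher in the 2 highest (0.17 and 0.29). Its nearest genes were OSTC (r = 0.45), the chaperone CALR (0.44) and SPARC (0.44) in CNT and CD276 (0.43), P4HB (0.42) and the chaperone HSPA5 (0.39) in 3CK.

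The other genes of collagen folding and modification were examined as a list. Of 20 listed genes, all 20 were compared over all cells, 0 were at least 2-fold higher and 1 was at least 2-fold lower (all genes 6.96% and 11.3%), with a median log2 ratio of -0.48 (all genes -0.05). P4HB, the beta subunit of prolyl 4-hydroxylase, was at 651 and 723 CPM, and PPIB, a peptidyl-prolyl isomerase, at 472 and 456 CPM. The largest ratio was that of the lysyl hydroxylase PLOD3 (log2 0.48) and the smallest that of P4HA3 (-1.39). In mesenchymal cells 3 of the 20 were at least 2-fold lower and 0 higher, where 16.7% and 6.05% of all genes were.

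**Figure D5:**
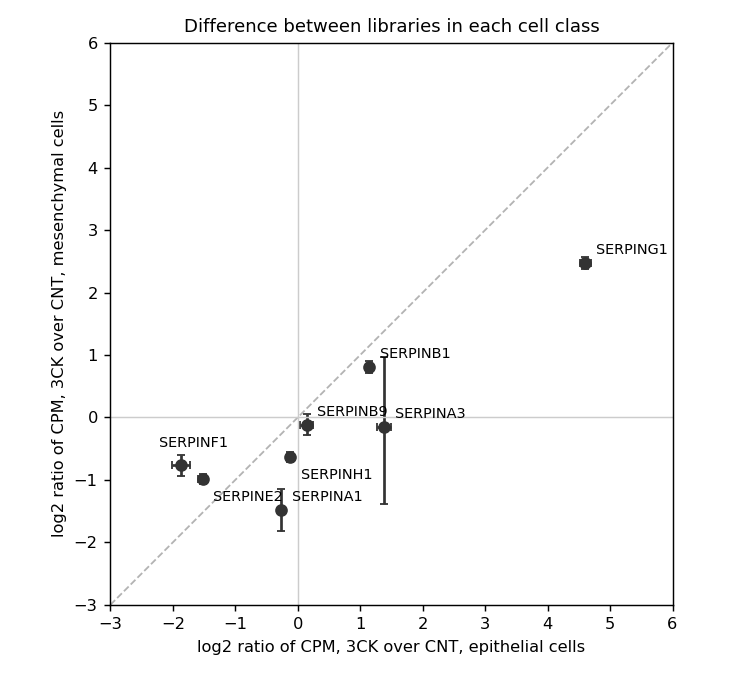
Log2 ratio of 3CK over CNT in epithelial cells (horizontal) against mesenchymal cells (vertical) for the 8 members with at least 1 CPM in mesenchymal cells; bars are 95% counting intervals and the dashed line marks equal ratios. SERPING1 lies at 4.61 and 2.47, SERPINB1 near the line, and SERPINA1 below it, on 522 and 87 mesenchymal UMIs.

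Between the classes, 7 of the 9 members stood at least 2-fold apart in each library, on a background in which many genes did. In CNT, SERPINB9, SERPINE2, SERPINF1 and SERPING1 were at least 2-fold higher in mesenchymal cells and SERPINA1, SERPINA3 and SERPINC1 at least 2-fold lower, where 26.1% of 18033 genes were higher and 15.1% lower (41.2% either way). In 3CK SERPING1 left the mesenchymal group and SERPINB1 joined the epithelial one, giving 3 higher and 4 lower, where 19% of 17177 genes were higher and 16.8% lower (35.8% either way). With TMM factors the CNT background was 17.7% higher and 20.7% lower, and SERPINB9 (log2 0.97) and SERPINB1 (-1.22) crossed the 2-fold line. SERPINA1 was 33.0-fold higher in epithelial than mesenchymal cells in CNT and 76.4-fold in 3CK, on mesenchymal levels of which carry-over could supply the shares given above. With each cell given equal weight the log2 ratio of mesenchymal over epithelial cells for SERPINA1 was -1.72 instead of -5.04 in CNT and -3.24 instead of -6.26 in 3CK. In CNT 4 members instead of 7 were then past 2-fold, where 19.3% of all genes were higher and 14.3% lower. Over CNT barcodes of at least 10000 UMIs only, the SERPINA1 ratio was -5.54. SERPINA3 was 9.89-fold and 28.6-fold higher in epithelial cells, on few mesenchymal UMIs, with equal-weight log2 ratios of -0.92 instead of -3.31 and -2.04 instead of -4.84. SERPINC1 was 22.2-fold higher in CNT and at least 5.59-fold higher in 3CK, the bound for 3 UMIs over the mesenchymal cells.

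Cycling cells were few in deep epithelium. The 24 3CK epithelial cells with at least 3 UMIs per 10000 of MKI67, TOP2A, CENPF and UBE2C together had 282 CPM of SERPING1 and 374 CPM of SERPINB1, against 353 and 373 CPM in the other 706 deep cells. SERPINA1 was at 427 CPM in those 24 cells against 735 CPM in the rest. In CNT it was at 1141 CPM in 23 cycling cells against 874 CPM in 990 others, the opposite direction. With so few cycling cells these values rest on 1 small set per library.

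Proteases were examined as a list of 34, compiled as candidate targets of serpins. Whether a serpin acts on each of them was not tested. Of these, 26 were compared over all cells, 4 were at least 2-fold higher and 5 at least 2-fold lower (all genes 6.96% and 11.3%), with a median log2 ratio of -0.30 (all genes -0.05). The largest ratio was that of C1S, a complement protease that C1 inhibitor binds. It was at 18.3 CPM in CNT against 174 CPM in 3CK (log2 3.26), with 3.67 in epithelial and 3.24 in mesenchymal cells, where SERPING1 had 4.61 and 2.47. C1R, its partner in the C1 complex and named after its values were seen, was at 17.1 and 122 CPM (2.84). The smallest ratio was that of MASP2, a protease of the lectin pathway, at 2.69 and 0.544 CPM (-2.31). The list's most abundant members were PRSS23 at 448 and 280 CPM and the lysosomal protease CTSL at 216 and 168 CPM. The leukocyte proteases that SERPINA1, SERPINB1 and SERPINB9 inhibit were nearly absent: over whole libraries ELANE had 2 UMIs in CNT and 1 in 3CK, PRTN3 4 and 1, CTSG 4 and 5, and GZMB 3 and 1.

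Of 24 protease inhibitors outside the family, 19 were compared, 0 were at least 2-fold higher and 4 at least 2-fold lower (all genes 6.96% and 11.3%), with a median log2 ratio of -0.16 (all genes -0.05). The trypsin inhibitor SPINK1 was at 2106 and 1837 CPM, and the cysteine protease inhibitor CST3 at 1380 and 1235 CPM. CSTA had the largest ratio (0.66) and ITIH1 the smallest (-3.36).

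Of the 25 other serpin genes, 17 were compared over all cells, 6 were at least 2-fold higher and 5 at least 2-fold lower (all genes 6.96% and 11.3%), with a median log2 ratio of -0.43 (all genes -0.05). In mesenchymal cells 13 were compared, and 7 were at least 2-fold higher and 3 lower (all genes 6.05% and 16.7%). SERPINB6, a cytosolic serpin, was at 120 and 111 CPM, and SERPINI1, neuroserpin, at 32.9 and 17.7 CPM. The largest ratio was that of SERPINB4, with 17 UMIs in CNT and 425 in 3CK, of which 352 were in mesenchymal cells. SERPINB4 and SERPINB3 are near-identical copies, so how their reads were shared out is uncertain. The smallest ratio was that of SERPINB13, with 224 and 12 UMIs.

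By position in GENCODE v44 (GRCh38) the members lay on 6 chromosomes, and no other gene of the feature list overlapped any of them. SERPINA1 (chr14:94376747-94390693, minus strand) and SERPINA3 (chr14:94612384-94624055, plus strand) belong to the same cluster on chromosome 14, and had log2 ratios of -0.20 and 1.43. SERPINB1 (chr6:2832332-2841959) and SERPINB9 (chr6:2887270-2903309), both on the minus strand of chromosome 6, had 1.16 and -0.08. SERPING1 (chr11:57597387-57619171) and SERPINH1 (chr11:75562056-75572783) lie far apart on the plus strand of chromosome 11. SERPINC1 is at chr1:173903800-173917327 and SERPINE2 at chr2:223975045-224039318, both on the minus strand, and SERPINF1 is at chr17:1762029-1777565 on the plus strand.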

How the data were processed

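The deposited matrices are raw UMI counts of genes by barcodes that the authors made with Cell Ranger 7.1.0 on GRCh38, per the file headers and the submitters' processing notes. The annotation version and the treatment of intronic reads were not given in the sources used here. Barcodes with at least 500 genes and at most 20% mitochondrial UMIs were kept, and Scrublet (scanpy 1.11.5) scores removed probable doublets at 0.8% per 1000 barcodes, 52 in CNT and 16 in 3CK. UMIs were summed per library and class and divided by the total to give CPM. Sums carry exact Poisson, shares and ratios exact binomial (Clopper-Pearson) 95% intervals, for counting error only. Intervals for differences of log2 ratios are a normal approximation from the UMI counts of both ratios. A sum of 0 was set to 3 UMIs as a bound. A gene was compared where either sum reached 1 CPM. The calculations were tested on simulated counts. All 9 members were named, of each other list the most abundant genes (3 for serpins, 2 otherwise) and the largest and smallest ratio, and for each member the 3 genes most alike. Some genes that this rule names are not reported here. Members, classes and lists were chosen with earlier results of these data known. Alternatives covered filters, doublets, scaling (edgeR 4.0.16 for TMM), cell weights, depth, class boundaries and class mix.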

Additional observations from a re-analysis of the deposited data

How the results depend on the processing

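The number of members at least 2-fold apart between the classes in CNT was 7, against 4 with each cell given equal weight (2 higher and 2 lower in mesenchymal cells) and 7 or 8 in the other alternatives. By the sums 26.1% of all genes were higher and 15.1% lower, and with equal weight 19.3% and 14.3%. SERPINA3 (-0.92), SERPINB9 (0.50) and SERPINF1 (0.81) were then inside 2-fold. Equal weight gives shallow barcodes a larger part than the sums do. Over CNT barcodes of at least 10000 UMIs only, the log2 ratio was -3.48 for SERPINA3 and 1.38 for SERPINB9. For 3CK over CNT the number was 5 or 6 over all cells, 4 to 6 in epithelial cells and 2 or 3 in mesenchymal cells, and between the classes in 3CK it was 6 or 7. With equal weight, 8.13% of all genes were at least 2-fold higher and 15.0% lower over all cells. The shares were 9.27% and 17.7% in epithelial cells, 10.4% and 23.8% in mesenchymal cells, and 18.9% and 19.3% between the classes in 3CK. TMM factors moved the median log2 ratio of all genes from 0.32 to -0.09 (mesenchymal over epithelial, CNT), from 0.07 to -0.11 (the same, 3CK) and from -0.21 to -0.02 (3CK over CNT, mesenchymal). SERPINB9 between the classes in 3CK then had 0.92. The cause of these shifts was not tested. No paired analysis was possible because each group is 1 library. Depth limits SERPINC1 everywhere and SERPINA3 in mesenchymal cells.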

Other observations

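Some serpins outside the 9 members, picked after their values were seen, also differed between the libraries. SERPIND1, heparin cofactor II, was at 8.15 CPM in CNT against 2.47 CPM in 3CK epithelial cells (log2 ratio -1.72) and at 1.73 and 13.4 CPM in mesenchymal cells (2.95), so its ratio had opposite signs in the 2 classes, on 34 and 122 mesenchymal UMIs. SERPINB2, plasminogen activator inhibitor 2, had log2 ratios of 0.31 in epithelial and 3.71 in mesenchymal cells. SERPINB8 was at least 2-fold higher in 3CK in both classes (1.26 and 1.32). The plasma serpins SERPINA6, which carries corticosteroids, and SERPINA4, kallistatin, were lower in 3CK epithelial cells (-2.28 and -2.26), as was SERPINC1 (-1.62), while SERPINA1 was at -0.26.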
